A study of Homo sapiens with 24 samples.

Results

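The genes described here encode the machinery on which the dTAG degradation system rests. They are 9 of the 60605 genes counted, chosen by name and not by a threshold on measured values, though earlier results of these data were known. All 9 passed the filter on low counts, as did 22326 genes in all. CRBN, DDB1, CUL4A, CUL4B and RBX1 encode the ubiquitin ligase that dTAG-13 recruits, GSPT1, ZFP91 and CSNK1A1 encode proteins that drugs of the thalidomide class can bring to that ligase, and FKBP1A encodes FKBP12, the protein from which the degradation tag was made.

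Nascent transcription was measured by PRO-seq (precision run-on sequencing), which maps the 3' ends of RNA still being made, in dTAG-TRPS1 Clones 28, 35 and 39 of T47D, a luminal, estrogen receptor positive breast cancer cell line. Cells of each clone received either 0.1% DMSO (the vehicle) or 100 nM of dTAG-13 and were harvested after 90 minutes. With 4 replicates per group there were 24 libraries in 6 groups. The replicates of a clone were harvested through the course of 1 day, the DMSO and dTAG-13 dishes of a replicate side by side, so that p-values measure the spread between these collections of each clone. All 24 libraries, the DMSO controls included, carry a degron insertion at the start of the TRPS1 coding sequence (a hygromycin resistance gene, a self-cleaving peptide, HA epitopes and a mutant FKBP12 domain), with the remaining TRPS1 copies knocked out so that only tagged protein is made. Each clone is a single isolate, all 3 descend from 1 parental clone that had been selected with puromycin, and hygromycin was the second selection. Neither parental cells nor an inactive control compound is among the groups, so dTAG-13 acting through TRPS1 and dTAG-13 acting otherwise cannot be told apart.

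Total counts per library ran from 3226718 to 9575803 (median 5042122). Luminal markers marked every library: the 8 tested (ESR1, PGR, GATA3, FOXA1, KRT8, KRT18, KRT19 and CDH1) had a lowest value of 75.9 CPM (counts scaled to library size with TMM factors), whereas the basal keratins KRT5, KRT14 and KRT17, the fibroblast gene LUM and the myeloid gene LYZ did not exceed 5 reads in any library.

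Cereblon, the product of CRBN, is a substrate receptor. It docks onto the adaptor DDB1, which hangs on the cullin scaffold CUL4A or CUL4B, and the RING protein RBX1 at the other end of the cullin binds the ubiquitin-charged E2 enzyme. Attachment of the small protein NEDD8 switches the cullin on, and the COP9 signalosome removes it again. Thalidomide, lenalidomide and pomalidomide bind cereblon and present new proteins (neosubstrates) to the ligase. dTAG-13 links a cereblon ligand of this class to a ligand that prefers the mutant FKBP12 domain, so that a tagged protein is ubiquitinated and degraded while its gene stays in place. The compound thus works on proteins already made, and PRO-seq reads say nothing of the amount of ligase protein.

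On hg38, with GENCODE release 44, the ligase genes lie on 5 chromosomes. CRBN (ENSG00000113851) spans chr3:3144628-3179727 on the minus strand, DDB1 (ENSG00000167986) chr11:61299451-61342596 (minus), CUL4A (ENSG00000139842) chr13:113208193-113267108 (plus), CUL4B (ENSG00000158290) chrX:120505920-120604074 (minus) and RBX1 (ENSG00000100387) chr22:40951347-40973309 (plus). Among the neosubstrate genes, GSPT1 (ENSG00000103342) spans chr16:11868128-11916082 (minus), ZFP91 (ENSG00000186660) chr11:58579063-58621550 (plus) and CSNK1A1 (ENSG00000113712) chr5:149492982-149551471 (minus). FKBP1A (ENSG00000088832) spans chr20:1368977-1393164 on the minus strand. Reads were counted over whole genes, introns included, so a gene shares reads with any gene that overlaps it on the same strand. ZFP91 lies almost wholly inside the readthrough gene ZFP91-CNTF, which held 13152 reads in all against 12380 for ZFP91, and the reads of these genes cannot be told apart. FKBP1A likewise lies inside a same-strand readthrough gene (ENSG00000274322). The latter held 9720 reads over its longer span against 5861 for FKBP1A. CSNK1A1 and GSPT1 each enclose a same-strand noncoding gene, with 6038 reads beside 36155 for CSNK1A1 and 506 beside 18465 for GSPT1. CRBN, DDB1, CUL4A and CUL4B overlap genes on the opposite strand in part (TRNT1, TKFC, PCID2 and MCTS1). GSPT1 and FKBP1A do so too, sharing 38927 bases with RSL1D1-DT and 9759 bases with SDCBP2-AS1. An antisense gene wholly inside ZFP91 and another inside GSPT1 held 4 reads each over the 24 libraries, so reads of the sense strand were not credited to them.

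The sequences upstream of CRBN and CSNK1A1 are shown because these members moved together, in Clone 39 and between replicate numbers, as described further on. Each run holds the 200 bases from 250 to 51 bases before the RefSeq start (GRCh38.p14), 5′ to 3′ on the gene's own strand, at chr3:3179768-3179967 (minus) for CRBN and chr5:149551490-149551689 (minus) for CSNK1A1, and neither overlaps an annotated exon. Capitals mark matches, on either strand, to any of the motifs searched. These were the GATA motif that TRPS1 can bind (AGATAA, also taken as AGATAG, with T first as TGATAA, or as TGATAG), the GC box GGGCGG and the E-box CACGTG. Also searched was AGGTCA, the unit that a full estrogen receptor site holds as a pair. Added after the sequences had been seen were the ETS motif CCGGAAG and TGCGCA, a part of the NRF1 site.
CRBN: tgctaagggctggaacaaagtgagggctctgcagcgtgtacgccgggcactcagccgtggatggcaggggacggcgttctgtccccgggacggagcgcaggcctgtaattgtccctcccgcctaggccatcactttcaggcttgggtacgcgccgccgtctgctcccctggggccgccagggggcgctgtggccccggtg
CSNK1A1: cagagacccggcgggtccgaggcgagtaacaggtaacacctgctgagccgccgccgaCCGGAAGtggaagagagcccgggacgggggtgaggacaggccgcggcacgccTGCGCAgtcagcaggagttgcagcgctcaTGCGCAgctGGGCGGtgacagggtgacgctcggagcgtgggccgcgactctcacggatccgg
The CRBN window was 69% G and C and held none of the 6 motifs. In the CSNK1A1 window, 70.5% G and C, there were 1 ETS match, 2 TGCGCA matches and 1 GC box, and no GATA or AGGTCA match. Among the windows of all 27305 genes with a RefSeq promoter, 19.9% held a GATA match, 9.73% AGGTCA, 34.5% a GC box, 4.66% an E-box, 5.16% the ETS motif and 4.9% TGCGCA. Among the other members, CUL4B had 1 GATA match, ZFP91 1 AGGTCA match, DDB1 1 GC box, RBX1 5 GC boxes and 1 E-box, and FKBP1A 3 ETS matches. The windows of DDB1, CUL4A, CUL4B and FKBP1A overlapped annotated exons. Those of DDB1 and CUL4B lay inside the GENCODE gene spans given above. These letters describe the windows and do not show that a factor binds there.

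All 9 genes were transcribed in every library. Per kilobase of gene, the scale on which genes can be compared, CSNK1A1, a serine/threonine kinase of Wnt and p53 signalling, had the highest mean level over the 24 libraries (4.92 CPM per kb). GSPT1, a translation termination factor, followed at 3.11, RBX1 at 2.56, DDB1 at 2.399, the zinc finger protein gene ZFP91 at 2.35 and FKBP1A at 1.96. CRBN stood at 1.71 ± 0.27 (SD, n = 24) and CUL4A at 1.63 ± 0.44, spreads that include differences between clones. In DMSO the means of CRBN and CUL4A were 1.84 and 1.28 in Clone 28 and 1.93 and 1.37 in Clone 35. In Clone 39 they were 1.41 and 2.28, so the order of the 2 genes differed between clones. CUL4B was lowest, at 0.367 ± 0.041. TRPS1, the tagged gene, stood at 18.1 CPM per kb, far above every member. Counts per library ran from 111 for CUL4B to 2890 for CSNK1A1, so counting error was largest for CUL4B.

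**Figure D1:**
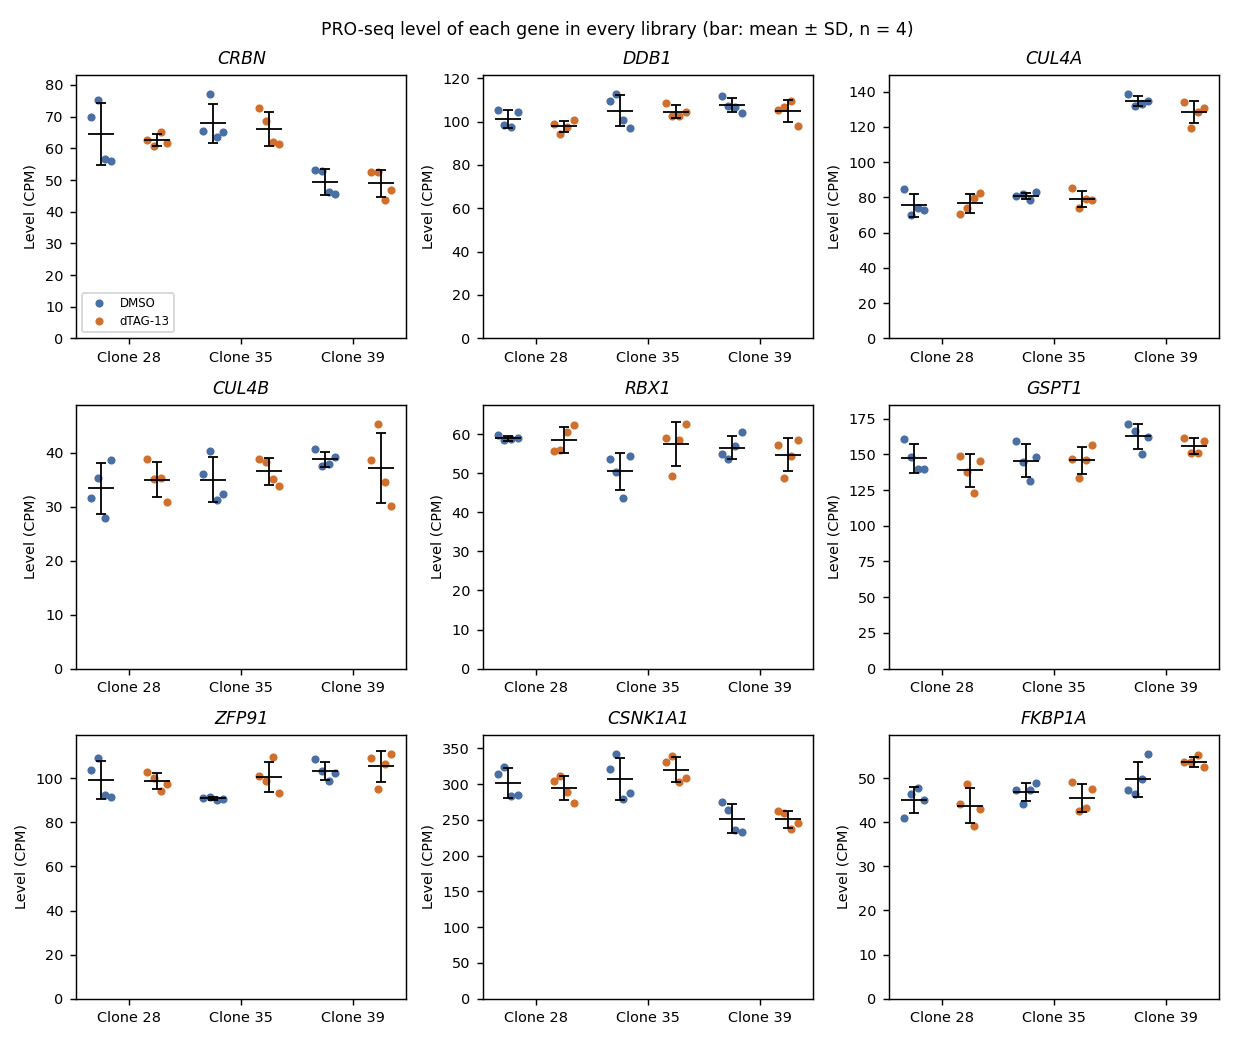
Each panel plots 1 gene, with its level in CPM (linear axis from 0) for every library; points are libraries, blue for DMSO and orange for dTAG-13, and black bars give the mean ± SD of the 4 libraries of a group. CRBN is lower and CUL4A higher in all 8 Clone 39 libraries than in the other 16, whereas DMSO and dTAG-13 points of a clone lie side by side.

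dTAG-13 for 90 minutes moved none of the 9 genes past the threshold, an adjusted p (edgeR's quasi-likelihood test, Benjamini-Hochberg over 22326 genes) under 0.1. With the 3 clones together 0 of 9 were called, against 0.551% of all genes (123 genes, 80 higher and 43 lower), and 0 of 9 had an unadjusted p under 0.05. The median log2 fold change of the 9 was 0.0050, beside -0.0018 over all genes. The 95% intervals of all 9 lay between -0.13 and 0.15 on the log2 scale, that is a difference from the DMSO level of between -8.84% and 10.7%. The genes that were called had absolute log2 fold changes of 0.13 to 1.23 (median 0.24). With the replicate pairs as a block, again 0 of 9 were called, against 2.33% of all genes (521).

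Within the ligase, CRBN, the receptor that dTAG-13 binds, had a log2 fold change of -0.03 (95% interval -0.13 to 0.07, adjusted p = 1.00) and was the higher of the pair in 4 of 12. In Clone 28 its levels were 69.9, 75.4, 56.6 and 56.0 CPM in DMSO (replicates 1 to 4) and 62.6, 60.9, 65.1 and 61.8 CPM in dTAG-13. In Clone 35 they were 65.6, 77.1, 63.6 and 65.1 CPM in DMSO and 72.6, 68.6, 62.1 and 61.4 CPM in dTAG-13. The treatments overlapped in both clones, and the DMSO replicates of Clone 28 alone spanned a wider range than all its dTAG-13 replicates. In Clone 39 they were 53.1, 52.8, 46.3 and 45.6 CPM in DMSO and 52.6, 52.5, 43.7 and 46.9 CPM in dTAG-13, again overlapping. DDB1, the adaptor, had a log2 fold change of -0.03 (-0.10 to 0.03), the tightest interval of the 5 ligase genes, over library levels of 94.3 to 113 CPM.

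Of the scaffolds, CUL4A had a log2 fold change of -0.03 (-0.10 to 0.05) and CUL4B of 0.02 (-0.11 to 0.14). With dTAG-13, CUL4A was higher in 3 of 4 pairs of Clone 28 and in 0 of 4 of Clone 39, where its levels were 139, 132, 133 and 135 CPM in DMSO and 134, 119, 129 and 131 CPM in dTAG-13 and its log2 fold change was -0.07 (-0.20 to 0.06). That pattern did not reach a call, and the clones overlapped in their intervals. RBX1, the RING subunit, had 0.05 (-0.04 to 0.15) over the 3 clones. In Clone 35 alone RBX1 stood at 53.6, 50.2, 43.8 and 54.3 CPM in DMSO and at 59.1, 49.4, 58.6 and 62.6 CPM in dTAG-13, a log2 fold change of 0.19 (0.04 to 0.35) with an adjusted p of 1.00. The groups overlapped through the second dTAG-13 replicate, and in Clones 28 and 39 the RBX1 estimates were -0.01 and -0.04. The difference of its change between the clones had an adjusted p of 1.00.

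The neosubstrate genes did not differ past the threshold either. ZFP91 had the largest estimate of the 9, a log2 fold change of 0.06 (-0.02 to 0.13, adjusted p = 0.929), and 9 of 12 pairs had the higher value in dTAG-13. In Clone 35 ZFP91 stood at 91.1, 91.7, 90.1 and 90.6 CPM in DMSO and at 101, 98.6, 109 and 93.4 CPM in dTAG-13. Those groups did not overlap, but the log2 fold change of 0.15 (0.02 to 0.28) had an unadjusted p of 0.0235 and an adjusted p of 1.00, and the DMSO libraries of that group were the closest together of any group for this gene (SD 0.696 CPM, against 3.62 to 8.58 in the others). GSPT1 had -0.05 (-0.13 to 0.03), higher in 4 of 12 pairs, and CSNK1A1 0.01 (-0.07 to 0.08), higher in 6 of 12. FKBP1A had 0.00 (-0.09 to 0.10) with 6 of 12 pairs higher, and its clone estimates were -0.05 in Clone 28, -0.04 in Clone 35 and 0.11 (-0.05 to 0.27) in Clone 39.

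**Figure D2:**
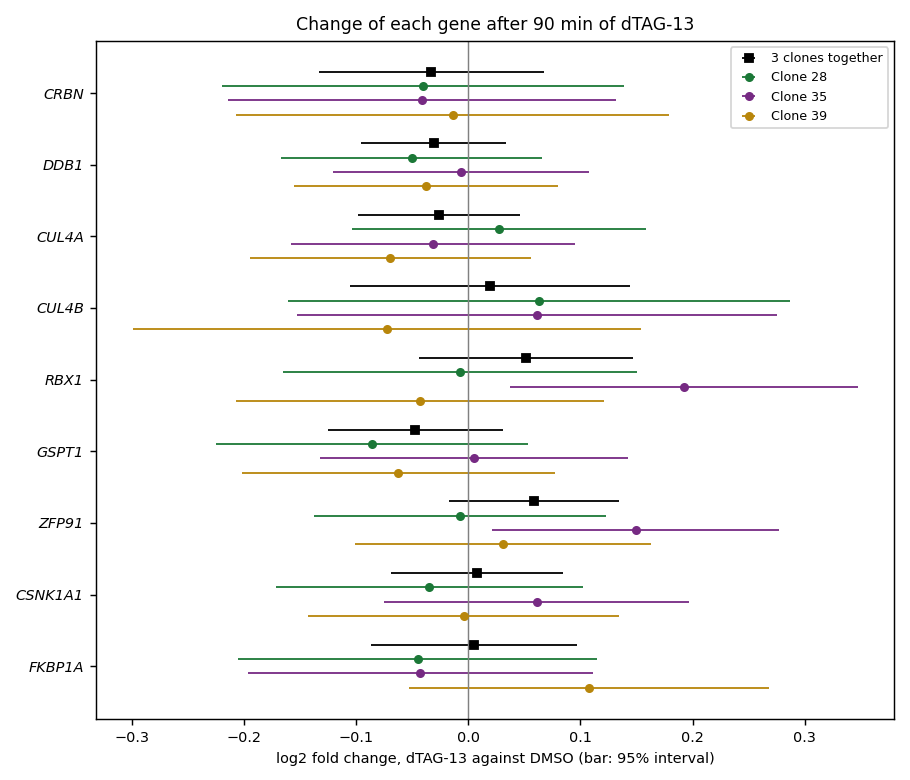
For each gene, points give the log2 fold change of dTAG-13 against DMSO on the horizontal axis, with bars for the 95% interval; black squares are the 3 clones together and coloured points each clone. Every black interval holds 0, and of the clone intervals only those of RBX1 and ZFP91 in Clone 35 do not.

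Each clone on its own gave the same count. In Clone 28, 0 of 9 members were called, against 0.0537% of all genes (12). In Clone 35 and in Clone 39 the count was 0 of 9 against 0% of all genes, where edgeR called 0 genes in each, with 646 and 754 genes at an unadjusted p under 0.05 and 1 gene in each by DESeq2. The clones' changes did not differ past the threshold for any member (0 of 9) nor for any gene (0%, with 407 genes at an unadjusted p under 0.05, and 0 genes by DESeq2). Intervals within a clone reached from -0.30 (CUL4B in Clone 39) to 0.35 (RBX1 in Clone 35) on the log2 scale. In each clone that of CUL4B was the widest and that of CRBN came next. Those of CRBN reached from -0.22 to 0.18 and those of DDB1 from -0.17 to 0.11. With the replicate pairs as a block the count was still 0 of 9 in each clone. The shares of all genes were then 1.18% in Clone 28 (263), 0.0941% in Clone 35 (21) and 0.0717% in Clone 39 (16). Beside such small shares, 0 of 9 is no result about the members as a set.

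TRPS1 is degraded as a protein, so its transcription does not check the treatment labels. Its level ran from 5183 to 9296 CPM over the libraries and 12 of 12 pairs had more in dTAG-13, with a log2 fold change of 0.19 (0.02 to 0.36, adjusted p = 0.733) and, with the replicate pairs as a block, 0.20 (0.14 to 0.25, adjusted p = 6.65e-04). The tag itself derives from FKBP1A, whose coding sequence is 324 bases. At this length, a stretch at the read density of TRPS1 would hold 18.8 to 56.5 reads per library, equal to 8.91% to 15.1% of the FKBP1A count, if every TRPS1 copy carried the tag and every such read were assigned to FKBP1A. Some TRPS1 copies in each clone are knocked out rather than tagged, which would lower these shares. The density used was the mean over the whole TRPS1 gene, and that at the tag itself was not measured, so the shares are no limits. Whether tag reads entered the FKBP1A count was not tested.

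With dTAG-13 few genes of the wider pathway were called. The 9 lists of related genes held 139 tested genes, of which 1 was called with the 3 clones together (0.719%, beside 0.551% of all genes), and their median log2 fold change was -0.0056, beside -0.0018 over all genes. No gene was called among the 25 regulators of the ligase and of NEDD8, the 11 E2 enzymes, the 26 other receptors of the DDB1-CUL4 ligases, the 11 endogenous cereblon clients, the 12 genes of VHL and other cullin ligases, the 15 FK506-binding proteins, the 11 partners of FKBP12 and the 5 other casein kinase 1 genes. The call was in the list of 23 other cereblon neosubstrates. It was ZNF692 (ENSG00000171163, chr1:248850006-248859144, minus), a zinc finger gene whose protein is known to be degraded with pomalidomide. Its level was 33.1 ± 2.67 CPM (SD, n = 4) in DMSO and 47.8 ± 3.33 in dTAG-13 in Clone 28, 32.2 ± 3.61 and 41.1 ± 2.27 in Clone 35, and 31.4 ± 3.78 and 38.4 ± 4.05 in Clone 39. ZNF692 rose in 12 of 12 pairs, with a log2 fold change of 0.39 (0.28 to 0.50, adjusted p = 3.06e-04). With the replicate pairs as a block its log2 fold change was also 0.39 (adjusted p = 6.89e-07). With the replicate block, under which 2.33% of all genes were called, the count was 3 of 23 neosubstrates and 1 each of the 26 other receptors, the 15 FK506-binding proteins and the 11 FKBP12 partners. In Clone 28 alone ZNF692 rose by 0.53 (adjusted p = 0.0245), while the estimates of 0.35 in Clone 35 and 0.28 in Clone 39 had adjusted p of 1.00. Without Clone 28 the log2 fold change was 0.32 and the adjusted p 0.194, and without the third dTAG-13 library of Clone 28 that clone's change was 0.48 (adjusted p = 0.135).

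The clones differed in some members, as they did in many genes outside this machinery. In DMSO, Clone 39 differed from Clone 28 in 3 of 9 members, against 26.7% of all genes, and from Clone 35 in 4 of 9, against 22.6%. Clone 35 differed from Clone 28 in 0 of 9 (5.25% of all genes, 1173 called by edgeR and 1044 by DESeq2, with 1 member at an unadjusted p under 0.05). Beside the shares of all genes, these counts are no result about the 9 members as a set. The clones are single isolates, so a clone difference describes these isolates. In bulk cultures, fewer transcribing cells and less transcription per cell cannot be told apart.

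CUL4A stood furthest apart. In DMSO its levels were 84.8, 70.2, 74.0 and 73.1 CPM in Clone 28, 80.6, 81.7, 78.4 and 82.8 CPM in Clone 35 and, as given above, 132 to 139 CPM in Clone 39. The 8 Clone 39 libraries of both treatments lay between 119 and 139 CPM (median 133) and the other 16 between 70.2 and 85.3 (median 78.7), with no overlap. In DMSO CUL4A was 1.79 times as high in Clone 39 as in Clone 28 (95% interval 1.63 to 1.95, log2 fold change 0.84, adjusted p = 2.42e-12) and 1.66 times as high as in Clone 35 (1.52 to 1.82, adjusted p = 3.68e-11). Its paralog CUL4B had log2 fold changes of 0.22 (-0.01 to 0.44) and 0.16 (-0.06 to 0.38) in the same comparisons, neither past the threshold.

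CRBN went the other way. It was 0.768 times as high in Clone 39 as in Clone 28 (0.675 to 0.874, log2 fold change -0.38, adjusted p = 0.00213) and 0.729 times as high as in Clone 35 (0.642 to 0.827, -0.46, adjusted p = 2.20e-04). The 8 Clone 39 libraries ran from 43.7 to 53.1 CPM and the other 16 from 56.0 to 77.1, again with no overlap. CSNK1A1 was also lower in Clone 39. Its DMSO levels were 315, 324, 283 and 285 CPM in Clone 28, 320, 341, 279 and 287 CPM in Clone 35 and 275, 263, 235 and 234 CPM in Clone 39. The log2 fold changes were -0.26 (-0.40 to -0.12, adjusted p = 0.00448) against Clone 28 and -0.29 (-0.42 to -0.15, adjusted p = 0.00195) against Clone 35. Over both treatments the highest Clone 39 library (275 CPM) just passed the lowest of the other 16 (274 CPM).

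Other members differed less or not past the threshold. ZFP91 was higher in Clone 39 than in Clone 35 in DMSO (0.19, 0.06 to 0.32, adjusted p = 0.0388), a call that was lost without a filter on low counts (adjusted p = 0.223), without the first DMSO library of Clone 39 (0.133) and in the dTAG-13 libraries (0.568). DDB1 had log2 fold changes of 0.09 (-0.03 to 0.20) and 0.04 (-0.08 to 0.15) in Clone 39. FKBP1A stood at 41.0, 46.3, 47.8 and 45.0 CPM in Clone 28 and at 47.3, 46.3, 49.9 and 55.3 CPM in Clone 39 in DMSO (0.14, -0.02 to 0.30, adjusted p = 0.217). RBX1 was lower in Clone 35 than in Clone 28 by a log2 fold change of -0.23 (-0.39 to -0.07) with an adjusted p of 0.117.

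With the replicate number as a block the calls against Clone 28 came to 5 of 9 in Clone 39 (35.2% of all genes), with CUL4B (adjusted p = 0.0738) and GSPT1 (0.0237) added. Against Clone 35 they came to 6 of 9 (30.5%), with RBX1 (0.0613) and GSPT1 (0.011) added, and Clone 35 differed from Clone 28 in 1 of 9 (11.9%), RBX1 (adjusted p = 0.0156).

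The same contrasts were made in the dTAG-13 libraries. Against Clone 28, 5 of 9 members were called in Clone 39 (26.4% of all genes), with log2 fold changes of 0.74 for CUL4A, -0.35 for CRBN, -0.23 for CSNK1A1, 0.30 for FKBP1A (adjusted p = 0.00508) and 0.17 for GSPT1 (0.0797). Against Clone 35, 4 of 9 were called (21.5%): CUL4A, CRBN, CSNK1A1 and FKBP1A (0.24, adjusted p = 0.0283). Clone 35 differed from Clone 28 in 0 of 9 (5.57%). CUL4A, CRBN and CSNK1A1 were thus called in both treatments against both other clones. FKBP1A was called in the dTAG-13 libraries, at 53.6, 53.6, 55.3 and 52.5 CPM in Clone 39 against 44.2, 48.6, 39.05 and 43.0 CPM in Clone 28, and not in DMSO, and the difference of its change between clones had an unadjusted p of 0.298 and an adjusted p of 1.00.

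**Figure D3:**
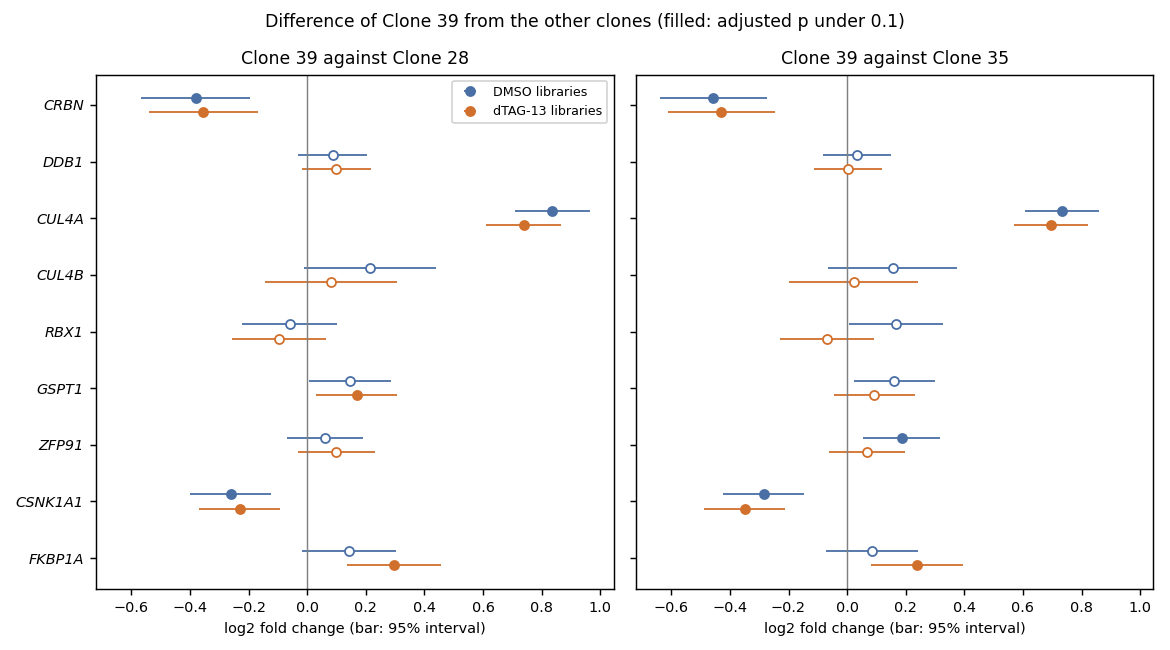
The horizontal axis gives the log2 fold change of Clone 39 against Clone 28 (left) and against Clone 35 (right) for each gene, with 95% intervals; blue points are the DMSO and orange points the dTAG-13 libraries, filled where the adjusted p was under 0.1. CUL4A lies at 0.70 to 0.84 and CRBN at -0.46 to -0.35 in all 4 contrasts.

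Markers of cell type moved between these clones too. Of the 8 luminal markers, 1 was higher and 4 lower in Clone 39 than in Clone 28, among them KRT18 (-0.57), KRT8 (-0.45) and CDH1 (-0.33), and their summed level in DMSO was 4896 to 6204 CPM in Clone 28 and 4589 to 5592 CPM in Clone 39. Of the 6 basal or myoepithelial markers 3 were tested, 1 higher (ACTA2, 1.00) and 1 lower (TP63, -0.78), with sums of 20.2 to 26.1 and 19.1 to 25.7 CPM. Of 6 immune or endothelial markers 3 were tested and PTPRC was higher (0.69, at a mean of 2.75 CPM), with sums over the list of 6.48 to 9.25 and 6.19 to 10.2 CPM. Of 4 fibroblast markers the 1 tested, COL1A1, was not called, and the sums were 10.9 to 13.4 and 14.8 to 15.96 CPM. KRT5 was at 0 in 16 libraries and LUM in 16. The part of these differences in those of CRBN, CUL4A and CSNK1A1 was not tested.

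Genes near each member on the chromosome were set beside it, a comparison chosen after the clone values had been seen and given without a test. Only genes with a mean of at least 10 CPM were used, of which 14.5% were higher and 16.8% lower in Clone 39 than in Clone 28 in DMSO, with a median log2 fold change of 0.01. Within 5 Mb of CUL4A, toward the end of the long arm of chromosome 13, 13 of 25 neighbours were higher and 0 lower (median 0.44). Within 5 Mb of CRBN on the short arm of chromosome 3, 0 of 17 were higher and 10 lower (median -0.26). Around CSNK1A1 on chromosome 5, 6 of 44 were higher and 17 lower (median -0.13). Neighbours of the other members were nearer the middle, with medians from -0.02 for ZFP91 to 0.11 for GSPT1. In Clone 35 against Clone 28 the medians were 0.03 for the neighbours of CUL4A, -0.01 for CRBN and 0.05 for CSNK1A1. The copy number of these regions was not measured here.

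The E2 enzyme gene UBE2G1 and the COP9 signalosome gene COPS3 were examined in the same way, having been chosen after their values were seen. UBE2G1 (ENSG00000132388, chr17:4269259-4366675, minus) encodes an E2 known to extend ubiquitin chains on cereblon neosubstrates. It stood at 140 ± 8.20 CPM (SD, n = 4) in Clone 28, 145 ± 6.23 in Clone 35 and 76.1 ± 4.61 in Clone 39 in DMSO, a log2 fold change of -0.87 against Clone 28 (adjusted p = 3.77e-13) and -0.93 against Clone 35 (1.16e-13). COPS3 (ENSG00000141030, chr17:17246616-17281273, minus) stood at 56.6 ± 1.04, 54.0 ± 4.99 and 27.3 ± 0.990 CPM, with log2 fold changes of -1.05 and -0.99. Within 5 Mb of UBE2G1, 130 of 133 genes were lower in Clone 39 than in Clone 28 and 0 higher (median -0.88), and within 5 Mb of COPS3, 73 of 74 were lower (median -0.80). In Clone 35 against Clone 28, 0 of 133 were lower and 4 higher around UBE2G1, and 13 of 74 were lower and 2 higher around COPS3. Of all genes with a mean of at least 10 CPM, 3.95% were lower and 2.38% higher in that comparison. VHL, the receptor used by another family of degraders, lies on the same arm of chromosome 3 as CRBN (chr3:10141778-10153667, plus) and was lower in Clone 39 by -0.37 against Clone 28 (adjusted p = 0.0116), where 44 of its 66 neighbours were lower.

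**Figure D4:**
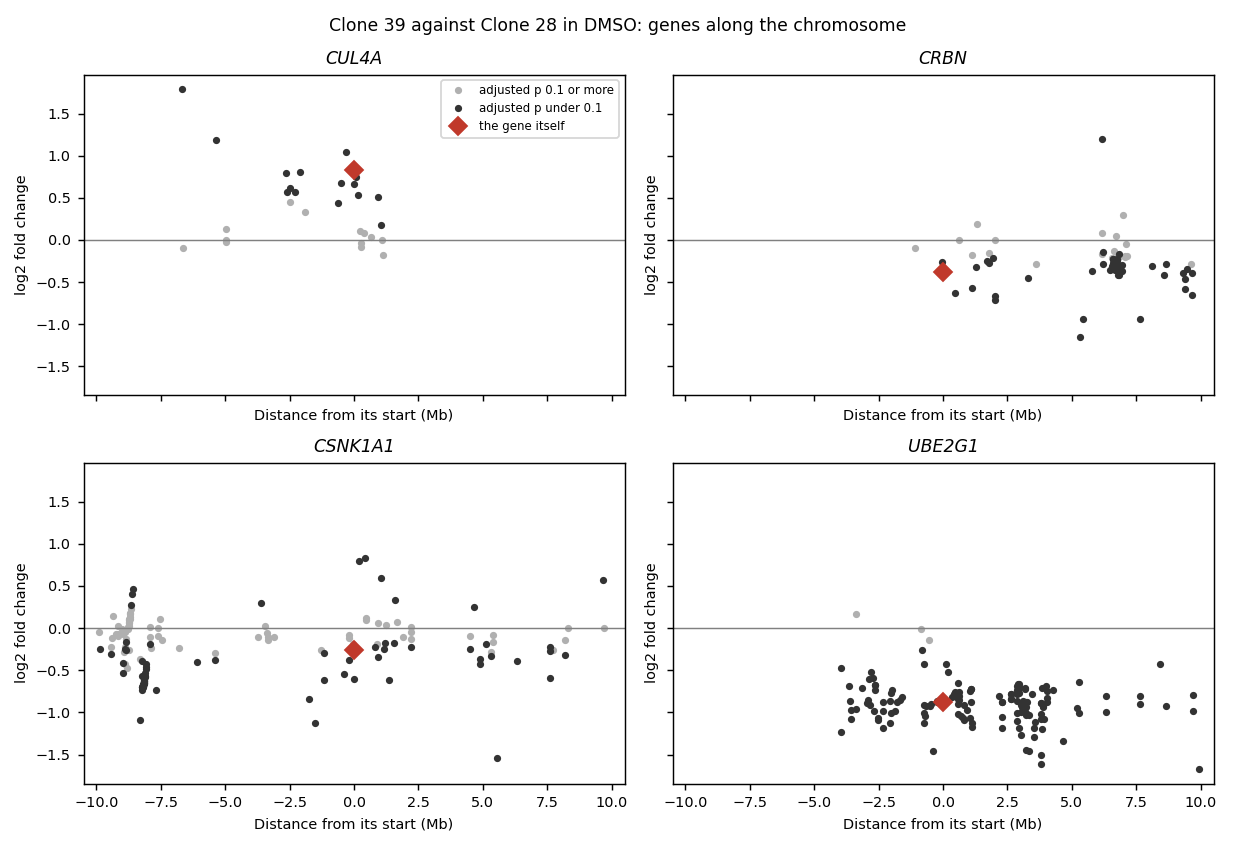
Each panel plots genes within 10 Mb of 1 gene: the horizontal axis is the distance of each gene's start from that of the named gene in Mb, negative toward lower coordinates, and the vertical axis the log2 fold change of Clone 39 against Clone 28 in DMSO. Dark points had an adjusted p under 0.1, grey points did not, and the red diamond is the gene itself. UBE2G1 at -0.87 lies among neighbours with a median within 5 Mb of -0.88. Within 5 Mb, called neighbours of CUL4A were all higher (median of all neighbours 0.44) and those of CRBN all lower (-0.26). Those of CSNK1A1 were called both ways (-0.13).

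Over all 9 lists, 41 of 139 tested pathway genes differed between Clone 39 and Clone 28 in DMSO (29.5%, 22 higher and 19 lower), close to the 26.7% of all genes. Against Clone 35 they were 26 (18.7%, 9 higher and 17 lower), and between Clones 35 and 28 they were 6 (4.32%). Those 6 were CAND1 (-0.34), which exchanges cullin receptors, FKBP5 (-0.27), FKBP10 (0.59), ARID2 (-0.31), the zinc finger gene ZBTB39 (-0.38) and the receptor gene DTL (-0.34). Of the 25 ligase and NEDD8 regulators 4 were higher and 4 lower, with COPS3, RNF7, which encodes another RING protein (-0.41), and DCUN1D1, which promotes NEDD8 attachment (-0.39), furthest from 0. Of the 11 E2 genes 3 were higher, among them UBE2D4 (0.30) and UBE2G2 (0.22), and UBE2G1 was lower. Of the 26 other receptors 4 were higher and 2 lower, with DCAF10 at 0.54, the DNA damage receptor DDB2 at -0.41 and DCAF4 at 0.38.

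Neosubstrate genes other than the members were called in 5 of 23 cases, 2 higher and 3 lower, the latter being the zinc finger gene ZBTB16 (-2.39), TP63 (-0.78) and the chromatin remodeller gene ARID2 (-0.45). Among the 11 endogenous clients 2 were higher, with GLUL, the glutamine synthetase gene, at 0.47, and 4 lower, with the ion channel gene KCNMA1 at -0.72 and the homeobox gene MEIS2 at -0.61. In the FK506-binding family 2 of 15 were higher and 2 lower: FKBP10 (0.76, at 6.71 CPM), FKBP1C (-0.86, at 4.65 CPM), a copy of FKBP1A with which it may share reads, and FKBP5, a co-chaperone of steroid receptors (-0.52), were furthest from 0. FKBP12 partners counted 3 higher and 1 lower of 11, with the receptor gene TGFBR1 at 0.55, the calcium channel gene RYR2 at -0.46 and the calcineurin gene PPP3CC at 0.41. Among VHL and the other cullin genes 1 of 12 was higher (CUL1, 0.13) and 2 lower (VHL and KLHDC2, -0.20), and of the 5 other casein kinase 1 genes 1 was higher (CSNK1G1, 0.22). With the replicate block, under which 35.2% of all genes were called, the counts were over 1.5 times as high for the other receptors (12 of 26), the neosubstrates (9 of 23) and the VHL and cullin list (5 of 12). Read against the share of all genes, these counts are no result about the lists.

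Several members differed between replicate numbers. With clone and treatment in the model, 5 of 9 members differed between replicate numbers, against 37.4% of all genes: CSNK1A1 (adjusted p = 1.20e-06), CRBN (0.00141), GSPT1 (0.00395), CUL4B (0.0538) and RBX1 (0.0712). For CSNK1A1 all 6 libraries of number 1 and all 6 of number 2 lay above their clone's mean, by 0.07 and 0.09 on the log2 scale on average, and all 12 of numbers 3 and 4 lay below it, at -0.09 and -0.08 on average. CRBN showed the same order, with 9 of the 12 libraries of numbers 1 and 2 above and 1 of the 12 of numbers 3 and 4. GSPT1 was instead above in 6 of 6 libraries of number 1 and below in 5 of 6 of number 3, and RBX1 was below in 6 of 6 of number 2 and above in 6 of 6 of number 4. The order of the numbers thus differed from member to member.

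Libraries 3 and 4 against 1 and 2, a contrast chosen after these values had been seen, called 4 of 9 members (40.9% of all genes): CRBN (-0.18, -0.25 to -0.10), CUL4B (-0.17, -0.27 to -0.06), CSNK1A1 (-0.16, -0.21 to -0.11) and GSPT1 (-0.06, -0.12 to -0.0034). TRPS1 moved the same way by -0.35 (-0.40 to -0.30). The labels place the replicates at different hours of a day but do not say whether a number stands for the same time in each clone. Same-numbered DMSO libraries of different clones deviated together (Pearson correlations over genes of 0.135 to 0.352, mean 0.231, 12 pairs of libraries). For DMSO libraries of different numbers and different clones the correlations were -0.309 to 0.258 (mean -0.0765, 36 pairs), so the 2 ranges overlapped. Deviations were taken from each group's own mean and cancel out over its 4 libraries. The second mean therefore largely follows from the first and is no separate comparison. Collection time, sequencing order and library preparation cannot be told apart here.

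**Figure D5:**
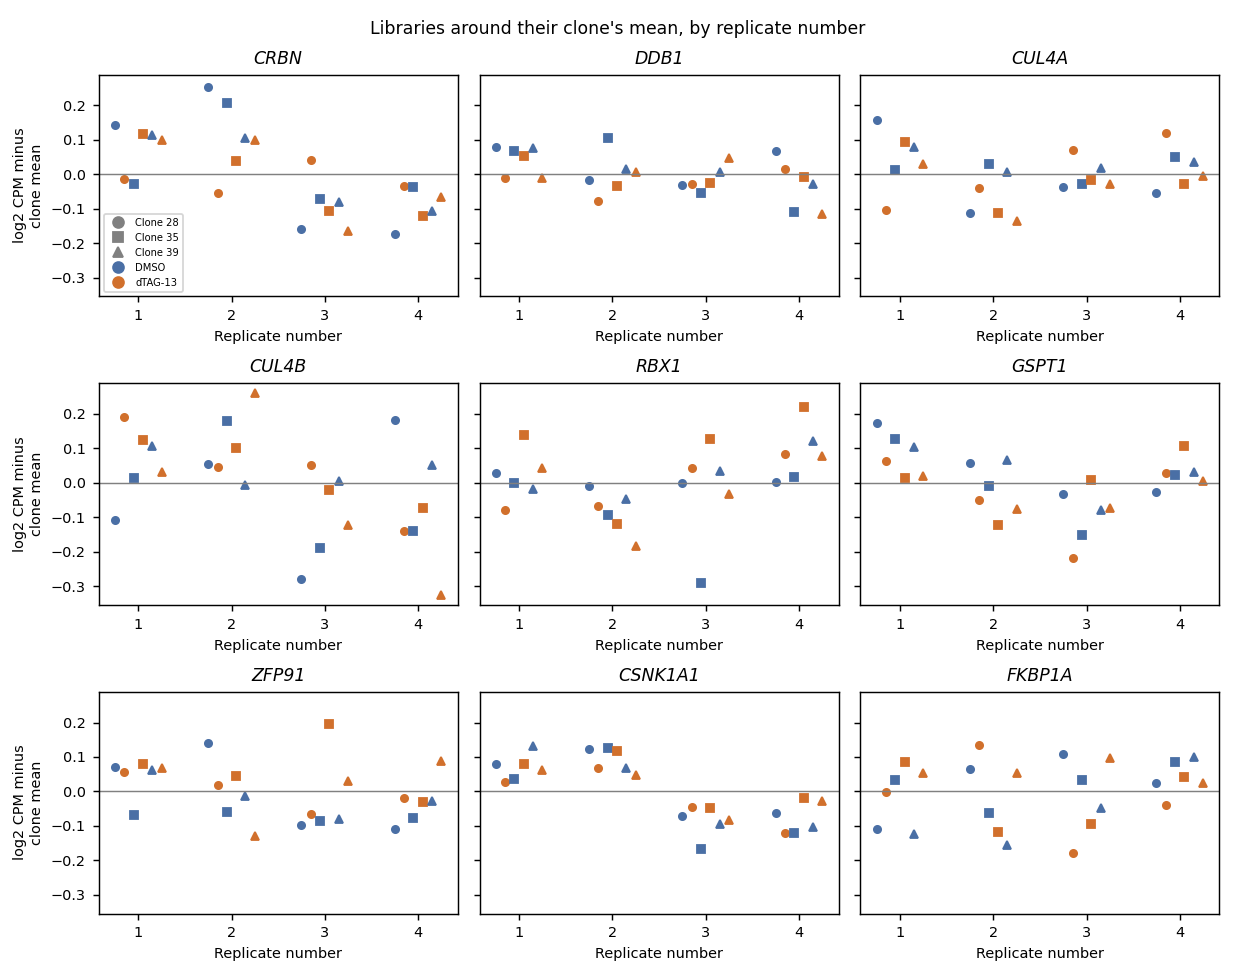
For each gene the vertical axis gives a library's log2 CPM minus the mean of its clone's 8 libraries, and the horizontal axis the replicate number; symbols mark clones, blue DMSO and orange dTAG-13. In the CSNK1A1 panel numbers 1 and 2 all lie above 0 and numbers 3 and 4 all below.

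Within clones, the members most alike over the 24 libraries were CRBN and CSNK1A1 (Pearson's r = 0.77 after the clone means were subtracted), followed by CUL4B and CSNK1A1 (0.54), and FKBP1A ran slightly against CRBN (-0.34). These libraries share replicate numbers and depth, so r is a description. Among all tested genes, those whose levels followed CRBN most closely within clones were LINC-PINT (0.87), a long noncoding RNA gene, MTDH (0.87) and the COP9 signalosome gene COPS2 (0.82). For FKBP1A they were CYB5R2 (0.73), ENSG00000267927 (0.73) and ENSG00000250286 (0.71), whose highest counts in a library were 19, 32 and 100, so that these likenesses rest on few reads.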

How the data were processed

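The authors trimmed PRO-seq reads with cutadapt 1.8.1, removed duplicates by their molecular identifiers, discarded reads of ribosomal DNA, aligned the rest to hg38 with Bowtie2 2.4.4, sorted them with SAMtools 1.9 (versions from the submitters' processing notes) and counted reads over genes with bedtools. The deposited values were raw counts for 60605 gene identifiers in 24 libraries, and 0 per-sample columns went unused. The annotation release and the strand setting of that counting are not given in the sources used here. Names and places came from GENCODE release 44, which matched 60463 rows, and 7268 genes had no read.

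Counts were tested with edgeR 4.0.16 in R 4.3.3 (filterByExpr with a minimum count of 10, TMM, robust quasi-likelihood fit), with Benjamini-Hochberg adjustment over 22326 genes and a threshold of 0.1, the one the study used. Treatment was tested with clone as a covariate, and each clone, the clone contrasts and their interaction in a model of the 6 groups that share 1 estimate of the spread. The replicate number was tested in a model that also held clone and treatment. CPM are counts scaled by TMM library size, and the log2 CPM had a prior count of 2. Intervals are 95%. The procedure was tested on simulated data. DESeq2 1.42.0 was an alternative, beside other scalings, filters and samples.

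Replicate numbers come from the labels, which say that both treatments of a replicate were collected at once. Deviations of the paired libraries from their group means correlated at 0.0926 to 0.318 (mean 0.185), over 0.1 in 11 of 12 pairs. Counts of replicate libraries differed beyond sampling noise in every pair within a group (chi-square over its degrees of freedom of 1.65 to 13.6).

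The 9 genes, the 9 pathway lists and the tests were chosen with earlier results of these data known. Named from the lists are up to 3 called genes per list and comparison with the largest absolute log2 fold change, given for the treatment comparison and for Clones 35 and 39 against Clone 28. For likeness, the 3 genes with the highest correlation to CRBN and to FKBP1A were named. Of 146 listed genes 139 were tested, and 1 symbol (CRBNP1) matched no row. Promoter sequences came from RefSeq on GRCh38.p14, where all 9 members matched. Protein sequences were not used here.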

Additional observations from a re-analysis of the deposited data

Results flagged for a closer look

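CRBN in the second DMSO library of Clone 35 stood at 77.1 CPM, while the other 3 libraries of that group lay between 63.6 and 65.6 CPM. Its gap to the nearest of them was large for the range of the group. It was the highest CRBN level of all 24 libraries. Of 60 groups of 4 libraries examined (10 genes in 6 groups) this was the 1 flagged, and chance would flag about 3. Without that library the change of CRBN with dTAG-13 in Clone 35 was 0.03 on the log2 scale, against -0.04 with it, neither past the threshold.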

How the results depend on the processing

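CUL4A, CRBN and CSNK1A1 stayed past the threshold in Clone 39 against Clone 28 and against Clone 35 in every fit that left out 1 library, and with dTAG-13 0 of 9 members were called in any setting tried. The members called came to 1 in Clone 35 against Clone 28 with the replicate block and with RLE size factors (0 in the other settings), 5 in Clone 39 against Clone 28 with the replicate block and in the dTAG-13 groups (3 as reported), and, between replicate numbers, 3 with DESeq2, without Clone 35, without Clone 39 and at a threshold of 0.05 (5 as reported). Leaving out 1 library gave 3 to 4 members in Clone 39 against Clone 28, 3 to 5 in Clone 39 against Clone 35 (3 without DMSO replicate 1 of Clone 39), where GSPT1 gained a call in 7 of 24 fits, 0 to 1 in Clone 35 against Clone 28 (1 without replicate 1 or 4 of DMSO or 2 or 4 of dTAG-13 in Clone 35, or replicate 4 of either treatment in Clone 39) and 3 to 6 between replicate numbers (3 without DMSO replicate 2 of Clone 35 or dTAG-13 replicate 2 of Clone 39). In the other comparisons the replicate block changed no call of members beyond those given above.

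Estimates near 0 changed sign, none of them called. Over the 3 clones, CUL4B was -0.0015 without Clone 28 and -0.0030 without Clone 35, RBX1 -0.024 and CSNK1A1 -0.019 without Clone 35, and FKBP1A -0.042 without Clone 39. With library totals only, RBX1 and ZFP91 were both 0.0032 in Clone 28, GSPT1 -0.0091 in Clone 35, CSNK1A1 0.0012 in Clone 39, and GSPT1 0.0053 in Clone 35 against Clone 28. DESeq2 gave 4.5e-04 for DDB1 in Clone 35. In the dTAG-13 groups GSPT1 was 0.075 and ZFP91 0.032 in Clone 35 against Clone 28, and RBX1 was -0.069 in Clone 39 against Clone 35. Leaving out 1 library gave ranges across 0 over the 3 clones for CUL4B (-0.0067 to 0.052), FKBP1A (-0.0090 to 0.023) and CSNK1A1 (-0.0087 to 0.023). In Clone 28 they were -0.11 to 0.044 for CRBN, -0.012 to 0.085 for CUL4A, -0.012 to 0.14 for CUL4B, -0.040 to 0.015 for RBX1, -0.046 to 0.039 for ZFP91 and -0.10 to 0.0062 for FKBP1A. In Clone 35 they were -0.086 to 0.029 for CRBN, -0.042 to 0.032 for DDB1 and -0.041 to 0.050 for GSPT1. In Clone 39 they were -0.054 to 0.031 for CRBN, -0.18 to 0.025 for CUL4B, -0.084 to 0.0068 for RBX1 and -0.039 to 0.044 for CSNK1A1. Between clones they were -0.038 to 0.059 for CSNK1A1, -0.027 to 0.13 for CUL4B and -0.068 to 0.029 for GSPT1 in Clone 35 against Clone 28, and -5.0e-04 to 0.079 for DDB1 in Clone 39 against Clone 35.

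Counts over all genes moved more. Those called with dTAG-13 over the 3 clones were 123, 521 with the replicate block, 197 with no filter, 1 without Clone 28, 37 without Clone 35 or Clone 39 and 66 without DMSO replicate 4 of Clone 28. In Clone 28 they were 12, against 263 with the block, 87 with no filter, 34 with DESeq2, 23 with at least 10 counts in every library, 22 with library totals, 7 with RLE, 4 from its own libraries and 2 to 28 with 1 library left out. Clone 35 gave 21 and Clone 39 gave 16 with the block, against 0. Clone 35 against Clone 28 gave 2664 with the block, against 1173, and replicate numbers 5370 without Clone 28, against 8355. The causes were not tested. CUL4B, at 111 to 336 reads per library, was the member that depth limited most.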
